A study of Homo sapiens with 30 samples.

Results

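The comparison is between H1299 cells that expressed p53 from a vector carrying a single O6-methylguanine (p53 O6-meG) and cells that expressed p53 from the same vector without the lesion (wild type p53), both sorted 6 h after transfection. It rests on 6 of the 30 RNA-seq libraries of the series, 3 per group, and asks which genes were at a lower or higher level in the first hours after a lesion-bearing template entered cells that can still repair it. H1299 is a human lung carcinoma line without endogenous p53, so every p53-dependent change comes from the vector. The vector also drives GFP, by which transfected cells were sorted. All the groups used here therefore carry a GFP cassette, and the pGFP control carries it without p53. The p53 O6-meG cells received no O6-benzylguanine (O6-bzG), so their O6-alkylguanine-DNA alkyltransferase (AGT, encoded by MGMT) was left active. The p53 TM cells, used here only for reference, received the same lesion vector with O6-bzG at 10 µM, which inactivates AGT. The RW mutant p53 cells, also only a reference, expressed p53 with 1 arginine of its DNA-binding domain replaced by tryptophan. All the cells are of 1 established line, and p53 is overexpressed from a transfected plasmid. The study's methods call the libraries biological triplicates, and the labels do not name the cultures they came from.

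Libraries were grouped by the names of the count columns, which are also the first part of the sample titles. For 2 libraries this conflicts with the rest of their labels. The library counted here as p53 O6-meG replicate 2 is called p53 O6-meG with O6-bzG in the parentheses of its title and in its genotype field, and the library counted as p53 TM replicate 2 has the reverse conflict. The grouping by column names was chosen with earlier results of these libraries known, and the levels of p53 targets side with it, so that these levels are no independent check of it. Results that turn on this choice are also given with both libraries left out or exchanged.

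O6-methylguanine is a small alkylation lesion that RNA polymerase II can bypass, often with a uridine in place of the cytidine. AGT removes the methyl group in 1 step by transferring it to itself, which restores guanine. In the vector the lesion lies on the template strand of the p53 coding sequence, where misreading gives a mutant protein with less DNA binding. As a transcription factor p53 raises genes of cell cycle arrest, apoptosis, DNA repair and metabolism, and its own inhibitors such as MDM2.

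The 6 libraries held between 38905286 and 71950532 reads counted on genes, and p53 O6-meG replicate 3 was the shallowest of them. Of 39359 genes in the count table, 20875 passed the filter on low counts and were tested. Levels are given as CPM (counts scaled to library size, after TMM normalization). The cells expressed KRT18, KRT8 and VIM, as this carcinoma line does, with a summed CPM of the epithelial and carcinoma markers from 3910 to 4480. That list also held EPCAM and CDH1, and 4 of its 5 genes passed the filter and enter the sum. Summed lung epithelium, endothelial and fibroblast markers stayed below 1 CPM in each of the 6 libraries, and the leukocyte markers PTPRC and CD3E did not pass the filter. The endothelial sum ranged from 0.206 to 0.341 CPM with wild type p53 and from 0.0449 to 0.192 CPM with p53 O6-meG, a difference carried by few reads whose part in the results was not tested. HBB, a globin gene of red blood cells, stood at 420, 455 and 496 CPM with wild type p53 and at 291, 326 and 162 CPM with p53 O6-meG, and its source was not tested. The summed blood cell markers, HBB included, were 542, 547 and 599 CPM with pGFP. HBB was not called over all libraries (edgeR, adjusted P = 0.55). It was called lower on the 15 libraries of 6 h (adjusted P = 0.041) and with a replicate block within each time (adjusted P = 0.012). In bulk RNA a lower number of expressing cells and less RNA per cell cannot be told apart.

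MGMT, which encodes AGT, was at 13.6, 13.9 and 12.3 CPM with wild type p53 and at 14.1, 14.6 and 14.3 CPM with p53 O6-meG. Its log2 fold change was 0.11 ± 0.11 SE, with an adjusted P of 0.77, and it was 12.9 ± 1.46 CPM with pGFP (SD, n = 3).

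Over all genes, 1 gene passed an adjusted P of 0.05 as lower with p53 O6-meG (0.00479% of those tested) and 0 passed as higher (0%), by edgeR's quasi-likelihood test fitted over all 30 libraries. That gene was MMP15, which encodes a membrane-anchored matrix metalloproteinase. It stood at 1.24, 1.79 and 1.8 CPM with wild type p53, at 0.696, 0.42 and 0.467 CPM with p53 O6-meG, and at 0.303, 0.371 and 0.244 CPM with pGFP. The groups did not overlap, and the lesion libraries lay nearer to pGFP than to wild type p53. MMP15 (chromosome 16, 58025754 to 58046901, plus strand, hg38; no annotated gene on the opposite strand) fell by 1.60 on the log2 scale (SE 0.23, adjusted P = 0.0038). The call was lost without p53 O6-meG replicate 2 (adjusted P = 0.14), without replicate 3 (adjusted P = 0.083) and without wild type replicate 3 (adjusted P = 0.065), and the log2 fold change then lay between −1.53 and −1.45.

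At an unadjusted P of 0.05, 1219 genes lay lower (5.84% of those tested) and 603 higher (2.89%). All 3 lesion libraries lay below all 3 wild type libraries for 2577 genes (12.3%) and above them for 2083 genes (9.98%). The number of calls depended on which libraries shared the estimate of spread. Fitted on the 15 libraries of 6 h alone, the same test called 102 genes lower (0.536%) and 3 higher (0.0158%). In that fit 85 of the 102 were among the genes raised by wild type p53 at 24 h that are described next, which made up 1562 of the 19034 genes tested. Without p53 O6-meG replicate 3 the same fit called 9 lower and 0 higher (547 higher at an unadjusted P of 0.05), and without both libraries of conflicting title it called 188 lower and 12 higher. When the replicate number entered the model of all 30 libraries as a block, 11 genes were called lower (0.0527%) and 2 higher (0.00958%). With a block for each replicate number within each time, an alternative added after values were seen, 392 genes were called lower (1.88%) and 106 higher (0.508%), and 221 of the 392 were among the raised genes. The replicate numbers were found to pair the 6 libraries from the data and not from a label, so calls of that fit are given beside most of the genes described here.

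Most of the genes that p53 raises lay lower with the lesion. Genes raised by p53 were taken from the 24 h libraries only, so that no library of 6 h chose them: 1919 genes (9.19% of those tested) stood above pGFP by 2-fold or more in wild type p53 cells of 24 h, at an adjusted P below 0.05. At 6 h their median log2 fold change between p53 O6-meG and wild type p53 was −0.33, a fold of 0.793, and 1726 of them (89.9%) lay below 0. Over all genes tested the median was −0.01 and 52.2% lay below 0. Among the raised genes 474 lay lower at an unadjusted P of 0.05 (24.7%, against 5.84% over all genes) and 1 lay higher, and for 843 (43.9%, against 12.3%) the groups did not overlap. Protein-coding and long non-coding genes of the list had medians of −0.33 (1420 genes) and −0.35 (304 genes), and the 825 genes without an annotated gene on the opposite strand had a median of −0.35. The 419 genes that wild type p53 lowered at least 2-fold at 24 h (2.01% of those tested) had a median of 0.05.

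Each lesion library showed the shift. Against the mean of the wild type libraries, the median log2 difference over the 1919 genes was −0.31, −0.22 and −0.44 in p53 O6-meG replicates 1, 2 and 3, and −0.06, −0.03 and 0.11 in the wild type libraries. No lesion library reached the range of the wild type libraries. Without p53 O6-meG replicate 3, the shallowest library, the median was −0.29 and the genes lower at an unadjusted P of 0.05 numbered 233. Without wild type replicate 3, the deepest library, they were −0.27 and 245.

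For a view per gene, the rise of wild type p53 over pGFP at 6 h was set to 100%, and the share of it that each lesion library reached was taken. This was done for 983 of the raised genes whose wild type level also exceeded pGFP by 2-fold or more at 6 h, without overlap. Because wild type libraries of 6 h helped to choose these 983, a gene that chance had raised in them enters with too low a share, and the shares are a description. The median share over the genes was 60.3%, 69.7% and 46.2% in p53 O6-meG replicates 1, 2 and 3, against 90.8%, 95.3% and 113% in the single wild type libraries. With p53 TM it was −0.752%, −1.15% and 1.1%, and thus about the level of pGFP. Taking the middle of the 3 lesion libraries per gene, the median was 59.8%, with quartiles of 41.3% and 77.9%. In 920 of 983 genes the share was below 100%, in 774 in all 3 lesion libraries, and in 361 it was below 50%. With the 2 libraries of conflicting title exchanged the median share was 39.9%.

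The known p53 targets had smaller differences, and they are also mostly abundant genes. Of 82 genes in 6 lists of p53 targets grouped by role, 78 were tested and 48 were among the raised genes. The median log2 fold change of these 48 was −0.09, against −0.33 for all 1919, and 34 lay below 0. In the fit over all libraries 0 of them passed an adjusted P of 0.05 by edgeR, and at an unadjusted P of 0.05 there were 4 lower (SFN, ABTB2, APAF1 and TP53I11; 8.33%, against 5.84% of all genes tested) and 0 higher. With the block within each time 5 were called lower (PRDM1, APAF1, TP53I11, GLS2 and SUSD6). That fit called 1.88% of all genes tested and 11.5% of the raised genes lower. Of the 48 genes, 32 had a mean of 50 CPM or more, with a median of −0.06 against −0.17 for the other 190 raised genes of that level, and 12 had 10 to 50 CPM, with −0.12 against −0.23 for the other 303. For 18 of the 48 all lesion libraries lay below all wild type libraries (37.5%, against 43.9% of the raised genes and 12.3% of all genes tested). For 3 all lay above (6.25%, against 0.677% of the raised genes and 9.98% of all genes tested). The share of the wild type rise over the 44 of them that entered that measure was 93%, 92.2% and 85.9% in the lesion libraries, against 8.36%, 6.64% and 11.7% with p53 TM. The lists are of the better known targets and were not drawn at random, and no test was made of their difference from the other raised genes.

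Of the 3 raised feedback genes 1 lay below 0, and that was MDM2. MDM2, the ubiquitin ligase that marks p53 for degradation, was at 1280, 1240 and 1360 CPM with wild type p53 and at 1150, 1180 and 972 CPM with p53 O6-meG, with pGFP between 182 and 209 CPM. The groups did not overlap, but the log2 fold change of −0.23 ± 0.14 SE did not pass the test (adjusted P = 0.63). PPM1D, the phosphatase that removes activating phosphates from p53, had a log2 fold change of 0.02 ± 0.10, and TRIAP1, an inhibitor of apoptosis in this feedback group, one of 0.09 ± 0.11.

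Of 13 raised genes of growth arrest, 10 lay below 0, with a median of −0.21. CDKN1A, the cyclin-dependent kinase inhibitor p21, was at 260, 242 and 262 CPM with wild type p53 and at 268, 249 and 261 CPM with p53 O6-meG, against 34 to 43.7 CPM with pGFP. Its groups overlapped, and the log2 fold change was 0.03 ± 0.15 (95% interval −0.28 to 0.34). BTG2, an antiproliferative gene, was at 101, 92.7 and 89.3 CPM and at 105, 101 and 80.5 CPM, and GDF15, a secreted stress cytokine, had a log2 fold change of 0.04 ± 0.14. Below wild type in every library were PLK2 (−0.21 ± 0.12), PML (−0.21), ZMAT3 (−0.28 ± 0.17), TP53INP1 (−0.34 ± 0.18), ABTB2 (−0.32 ± 0.13) and PRDM1 (−0.54 ± 0.29), with adjusted P between 0.53 and 0.66. SFN, which encodes the arrest protein stratifin, also lay below in every library and had the lowest value of the group at −0.91 ± 0.33 (adjusted P = 0.49), at levels under 1 CPM in all 6 libraries.

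The 15 raised genes of apoptosis had a median of −0.09, and they differed among themselves. TP53I11, a p53-inducible gene of the apoptosis list, was at 16.2, 16.8 and 24.7 CPM with wild type p53 and at 10.2, 11.1 and 7.86 CPM with p53 O6-meG, with at most 0.175 CPM with pGFP. APAF1, the scaffold of the apoptosome, was at 177, 182 and 200 CPM and at 139, 142 and 104 CPM, with pGFP between 36.4 and 42.8 CPM. In both genes every lesion library lay below every wild type library and far above pGFP. Their log2 fold changes were −0.99 ± 0.30 and −0.54 ± 0.19, with adjusted P of 0.45 and 0.47 over all libraries and of 0.031 and 0.023 in the fit on the 15 libraries of 6 h. In that fit both calls were lost without p53 O6-meG replicate 3 (adjusted P of 0.14 for TP53I11 and 0.059 for APAF1), and with the block within each time the adjusted P were 0.011 and 0.019. PIDD1, of a caspase-2 activating complex, had −0.38 ± 0.20 (adjusted P = 0.59). Closer to 0 were the death receptor genes FAS (−0.09 ± 0.14) and TNFRSF10B (0.06 ± 0.09), the BH3-only gene BBC3 (−0.08 ± 0.16) and the pore-forming BAX (−0.05 ± 0.09), although FAS lay below in every library. AEN, a nuclease of apoptosis, stood at 251, 241 and 231 CPM with wild type p53 and at 274, 261 and 252 CPM with p53 O6-meG, so that all lesion libraries lay above, by 0.12 ± 0.10 (adjusted P = 0.71).

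All 5 raised genes of DNA repair lay within 0.1 of 0. XPC and DDB2, which recognise damage in nucleotide excision repair, had log2 fold changes of −0.02 ± 0.09 and 0.02 ± 0.09, and POLH, a translesion polymerase, one of −0.09 ± 0.17. The 9 raised genes of metabolism and autophagy had a median of −0.09. SESN1, a sestrin that restrains mTORC1, was at 224, 224 and 206 CPM with wild type p53 and at 230, 240 and 193 CPM with p53 O6-meG. GLS2, a mitochondrial glutaminase, was at 16.9, 17.1 and 20.8 CPM and at 12.4, 14.4 and 11.8 CPM, without overlap. Its log2 fold change was −0.50 ± 0.25, with an adjusted P of 0.58 over all libraries, of 0.036 on the 15 libraries of 6 h, of 0.17 on these without p53 O6-meG replicate 3, and of 0.024 with the block within each time. SUSD6 had −0.36 ± 0.18 (adjusted P = 0.58, and 0.029 with the block within each time). The 3 raised non-coding genes, MIR34AHG (host of miR-34a), LNCTAM34A and TP53TG1, lay between −0.16 and −0.04.

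**Figure D1:**
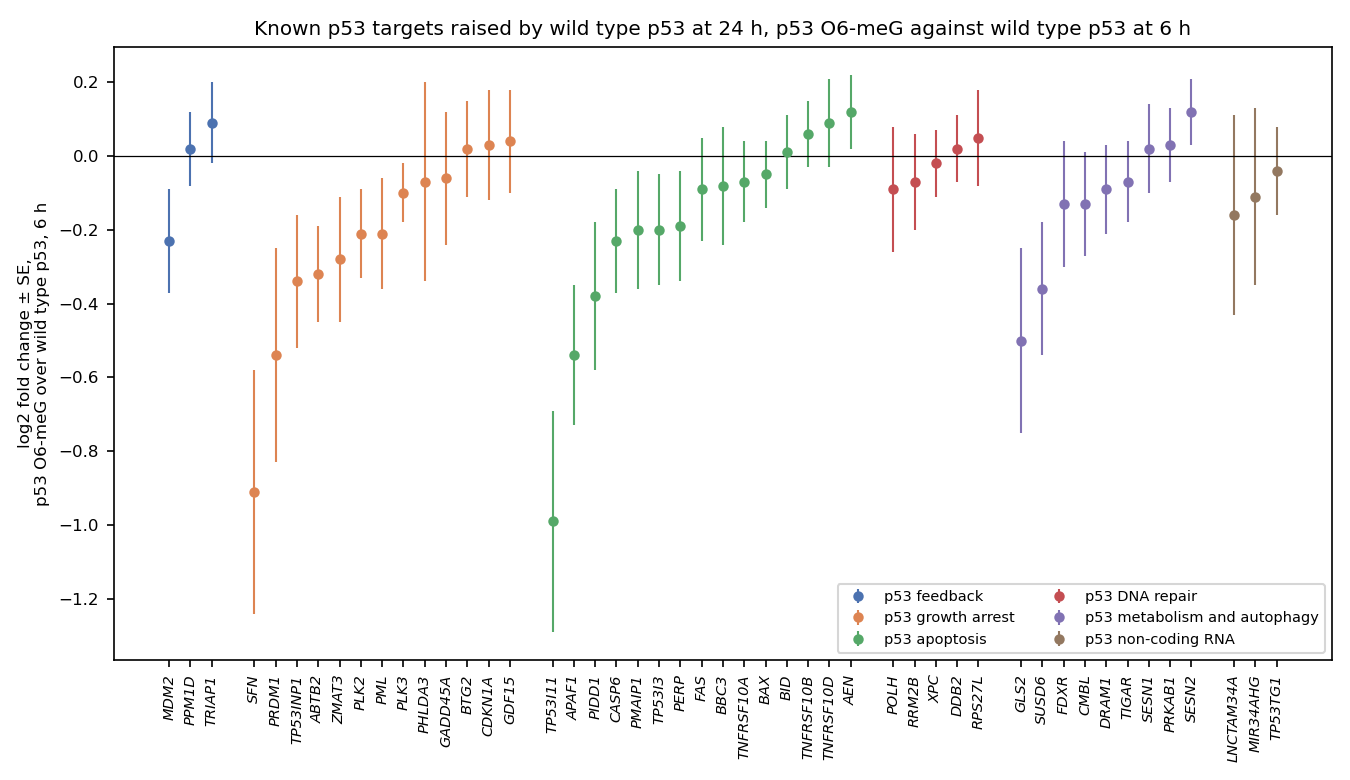
Log2 fold change of p53 O6-meG over wild type p53 at 6 h (y axis; point with SE, 3 libraries per group) for the 48 known p53 targets raised by wild type p53 at 24 h, coloured by role. Most points lie within 0.3 of 0; TP53I11 at −0.99 and SFN at −0.91 are the lowest, and AEN and SESN2 at 0.12 the highest.

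**Figure D2:**
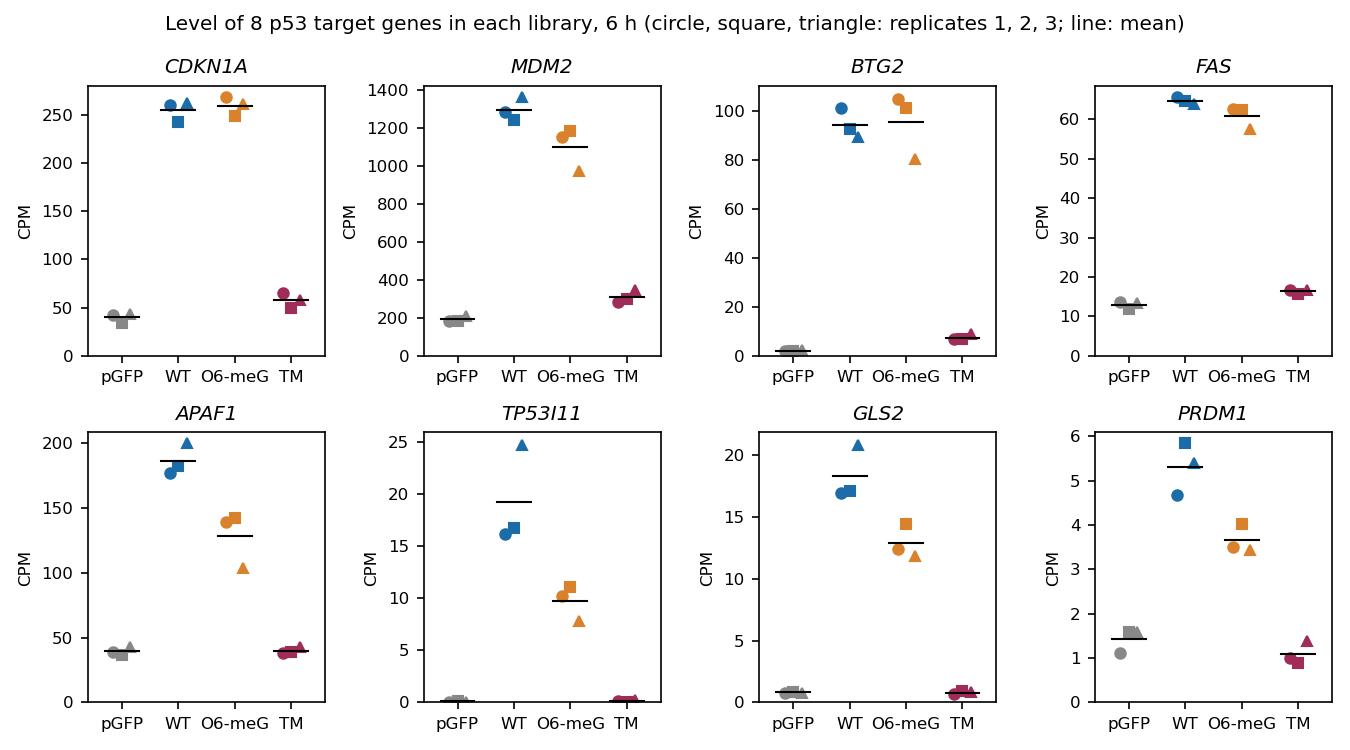
CPM (y axis, from 0) of 8 p53 targets in each 6 h library of pGFP, wild type p53 (WT), p53 O6-meG and p53 TM; circle, square and triangle are replicates 1, 2 and 3 and the line is the mean. CDKN1A and BTG2 overlap between wild type p53 and p53 O6-meG, while APAF1, TP53I11, GLS2 and PRDM1 lie lower with p53 O6-meG in every library and FAS does so by less than 10 CPM.

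The size of the difference went with the level of the gene and with the rise from 6 h to 24 h. Among raised genes with a mean below 0.5 CPM over the 6 libraries the median log2 fold change was −0.56 (707 genes), and it was −0.45 from 0.5 to 2 CPM, −0.35 from 2 to 10 CPM, −0.23 from 10 to 50 CPM and −0.15 at 50 CPM or more (222 genes). Genes not raised at 24 h had medians of −0.12, −0.04, −0.01, 0.03 and 0.03 in the same classes, so the raised genes lay below the others in each class. The classes of low level hold few reads per gene, and there the spread between single genes is widest.

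A further grouping used the log2 rise from the mean of the 6 libraries to wild type p53 at 24 h. Raised genes with a rise below 0.5 had a median log2 fold change of −0.16 (413 genes), and the medians were −0.25 from 0.5 to 1, −0.39 from 1 to 2 and −0.74 at 2 or more (515 genes). That mean holds the lesion libraries, so a lower lesion level itself makes the rise larger, and part of the order is built in. The rise was therefore also taken from the wild type libraries of 6 h alone, where a wild type level that is high by chance works against the order. The medians were then −0.22 (534 genes), −0.28, −0.43 and −0.70 (379 genes), and at 10 CPM or more −0.14 (248 genes), −0.21, −0.32 and −0.68 (8 genes). Genes not raised at 24 h had medians of 0.02, −0.08, −0.17 and −0.28 in these classes, and at 10 CPM or more 0.03, −0.05 and −0.05. Across the 1919 genes Spearman's rho with the log2 fold change was −0.50 for the rise from the 6 libraries and −0.34 for that from wild type p53. For the mean level it was 0.36 over the 6 libraries and 0.31 over the wild type libraries. These are correlations over genes measured in the same libraries and carry no P.

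Gene length showed a weaker pattern. Over all raised genes the medians were −0.36, −0.31, −0.36 and −0.33 from genes under 10 kb through 10 to 50 kb and 50 to 100 kb to genes of 100 kb or more, with a rho of −0.01 over 1896 genes with coordinates. At a mean of 10 CPM or more they were −0.18, −0.18, −0.23 and −0.23, and the groups did not overlap, with the lesion lower, for 40.9%, 57.5%, 67.8% and 65.6% of the genes. Genes that were not raised ran the same way at that level, with medians of 0.08, 0.05, 0.00 and −0.02.

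**Figure D3:**
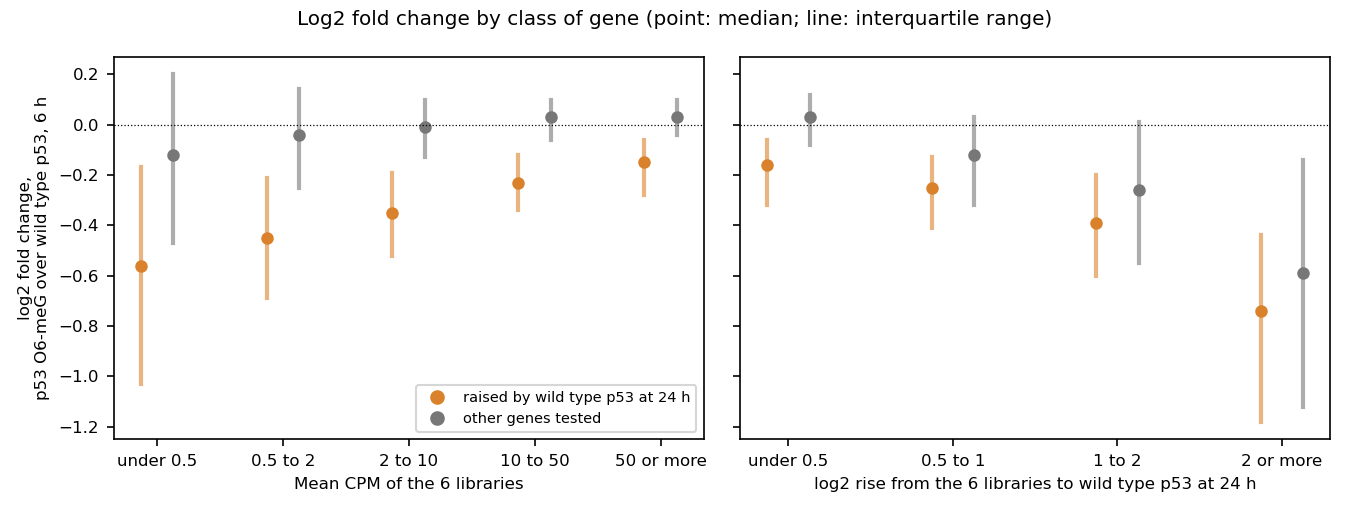
Log2 fold change of p53 O6-meG over wild type p53 at 6 h (y axis; point, median; line, interquartile range) by mean CPM of the 6 libraries (left) and by the log2 rise from these libraries to wild type p53 at 24 h (right), for genes raised at 24 h (orange) and the other genes tested (grey). Raised genes run from −0.56 to −0.15 with rising level, and from −0.16 to −0.74 with the rise to 24 h, whose starting mean includes the lesion libraries.

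The 10 genes of smallest P among those lower without overlap were MMP15, FOXF1, OPRL1, APC2, SPNS2, ZNF503, FOXC1, KCNJ12, COL9A3 and DENND6B, and only MMP15 passed the adjusted P in the fit over all libraries. All but FOXC1 and DENND6B were among the genes raised by wild type p53 at 24 h. Both of these also stood above pGFP at 24 h, but below the 2-fold limit of that list. Their log2 fold changes were 0.84 for FOXC1 (edgeR, adjusted P = 3.6e-07) and 0.83 for DENND6B (adjusted P = 0.00081). KCNJ12, an inward rectifier potassium channel, was at 15.3, 16.5 and 22.4 CPM with wild type p53 and at 9.91, 9.88 and 7.06 CPM with p53 O6-meG, with pGFP between 2.38 and 3.19 CPM. OPRL1, the nociceptin receptor, was at 6.77, 7.41 and 9.24 CPM and at 3.28, 4.29 and 2.75 CPM, with pGFP between 1.05 and 1.31 CPM. In both genes the lesion libraries lay between pGFP and wild type p53. Their log2 fold changes were −1.01 ± 0.22 (adjusted P = 0.18) and −1.18 ± 0.23 (adjusted P = 0.14).

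FOXF1, a forkhead transcription factor, was at 0.49, 0.477 and 0.619 CPM with wild type p53, at 0.112, 0.0932 and 0.0275 CPM with p53 O6-meG and at 0 in all pGFP libraries, which is between 1 and 42 reads in the 6 libraries. FOXC1, another forkhead factor, was at 9.03, 10.2 and 10.4 CPM with wild type p53, at 7.68, 6.74 and 6.29 CPM with p53 O6-meG and at 7.13 to 7.78 CPM with pGFP. The lesion libraries of FOXC1 thus overlapped pGFP. The other genes of this group are APC2, a relative of the APC tumour suppressor (−0.74 ± 0.15), SPNS2, a sphingosine-1-phosphate transporter (−1.54 ± 0.31), ZNF503 (−1.04 ± 0.21), COL9A3, a collagen chain (−1.15 ± 0.25), and DENND6B (−0.89 ± 0.20), with adjusted P between 0.14 and 0.18. OPRL1, APC2, SPNS2, ZNF503, COL9A3 and DENND6B overlap an annotated gene on the opposite strand. The counting's strand setting is not given in the sources used here, so their counts may hold reads of the other gene. The same holds for APAF1, TP53I11, GLS2 and CCNE2, among others.

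With the replicate number as a block, FOXF1 (adjusted P = 0.0067), OPRL1 (adjusted P = 0.0067), ZNF503 (adjusted P = 0.0067), APC2 (adjusted P = 0.03), SPNS2 (adjusted P = 0.044) and KCNJ12 (adjusted P = 0.049) also passed as lower by edgeR, and FAM111B (adjusted P = 0.022) and CCNE2 (adjusted P = 0.013) as higher. With the block within each time all 10 of these lower genes passed, with FOXC1 and COL9A3 at an adjusted P of 0.011 and DENND6B at 0.017, and FAM111B (0.0029) and CCNE2 (0.0012) passed as higher. On the 15 libraries of 6 h the same 10 passed as lower, from an adjusted P of 0.0034 (OPRL1) to 0.043 (COL9A3), with MMP15 at 0.0074 (edgeR). FAM111B passed there as higher (0.03), and CCNE2 did not pass. Without p53 O6-meG replicate 3 that fit called 9 of all genes tested lower and 0 higher.

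On the other side, the 10 genes of smallest P among those higher without overlap were FAM111B, ENSG00000236528, CCNE2, SLC2A3, ECHS1, TBCC, PSMC1P9, PGK1P2, RPL21P69 and ZNF718, and none of the 10 passed the adjusted P over all libraries. CCNE2, which encodes cyclin E2 of the step into S phase, was at 79.7, 79.6 and 65.4 CPM with wild type p53, at 107, 110 and 90.5 CPM with p53 O6-meG and at 98.6 to 105 CPM with pGFP. FAM111B, a protease gene, was at 68.8, 65.9 and 63.2 CPM, at 89.4, 84.5 and 84.4 CPM, and at 86.4 to 93.7 CPM with pGFP. In both genes the lesion libraries lay above wild type p53 and near pGFP. Their log2 fold changes were 0.45 ± 0.10 (adjusted P = 0.20) and 0.38 ± 0.08 (adjusted P = 0.15), and wild type p53 stood below pGFP at 24 h by a log2 fold change of −1.55 for CCNE2 and −1.14 for FAM111B. SLC2A3, the glucose transporter GLUT3 (0.29 ± 0.07), ECHS1, an enzyme of fatty acid oxidation (0.33 ± 0.08), TBCC, a tubulin-folding cofactor (0.34 ± 0.09), and ZNF718 (0.22 ± 0.07) had adjusted P between 0.37 and 0.45. With the block within each time these genes passed as higher (edgeR, adjusted P = 0.015, 0.027, 0.02 and 0.044). PSMC1P9 (0.043), PGK1P2 (0.04) and ENSG00000236528 (0.019) also passed in that fit. PSMC1P9, PGK1P2 and RPL21P69 are pseudogenes that can share reads with their parent genes, and ENSG00000236528 has at most 36 reads in any of the 6 libraries.

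By the share of the wild type rise, the 10 lowest genes were SHANK2, ECM2, RPSAP33, APOBR, FDX2, ENSG00000236283, GOLGA6L3P, DLX3, VWF and CCDC63, with shares from −52% to −14.7%. Apart from GOLGA6L3P, none had more than 24 reads in any of the 6 libraries, so that these shares were not measured with any precision. The 5 highest, PKLR, ITPR1-DT, RTL9, LTBR and CYP4F3, from 208% down to 156%, had at most 20 reads. A limit of at least 10 reads in each of the 6 libraries, added after these values were seen, left 615 genes with a median share of 66.7%, of which 139 lay below 50% and 36 above 100%. The limit also holds for the lesion libraries and so drops genes of low lesion level, which in part builds in a higher median share. Its lowest genes were GOLGA6L3P, a pseudogene, SIRPA, TMOD1, PTPRU, EN2, MMP15, PCSK5, ZNF503, RNU6-1016P and CASKIN1, from −18.3% to 17.9%. SIRPA, the receptor of the CD47 signal, was at 1.1, 1.23 and 2.31 CPM with wild type p53 and at 0.584, 0.816 and 0.522 CPM with p53 O6-meG, with pGFP between 0.485 and 1.03 CPM. TMOD1, which caps actin filaments, was at 1.19, 1.57 and 1.69 CPM and at 0.584, 0.676 and 0.385 CPM, with pGFP between 0.471 and 0.807 CPM. In both genes the lesion libraries were within or near the range of pGFP. With the block within each time both were called lower (edgeR, adjusted P = 0.012 for SIRPA and 0.0019 for TMOD1). The highest shares under this limit were those of TNFRSF10D, a decoy receptor of TRAIL, ENSG00000277453, LINC02875, IKBIP and AEN, from 120% down to 112%.

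Cell cycle genes that p53 is known to lower through p21 had differences near 0 in most cases. All 28 listed cell cycle genes were tested, and their median was 0.03. Against pGFP at 6 h, wild type p53 itself had a median log2 fold change of −0.01 over them. As a list they were thus not lowered at 6 h, and a difference near 0 does not show that their lowering was kept. At an unadjusted P of 0.05, 4 of 28 were higher (CCNE2, CDC6, E2F1 and MCM5; against 2.89% of all genes) and 1 was lower (3.57%, against 5.84%), and 0 of the 28 passed the adjusted P over all libraries (edgeR). The lower one was MKI67, the proliferation marker Ki-67, at 373, 311 and 370 CPM with wild type p53 and at 263, 242 and 228 CPM with p53 O6-meG, with a log2 fold change of −0.52 ± 0.17 (adjusted P = 0.45). CDC6, which loads the replicative helicase, was at 135, 125 and 120 CPM and at 162, 148 and 157 CPM, with a log2 fold change of 0.30 ± 0.11 (adjusted P = 0.50). On the 15 libraries of 6 h CDC6 was called higher (edgeR, adjusted P = 0.035). Without p53 O6-meG replicate 3 that fit called 0 genes higher. In neither MKI67 nor CDC6 did the groups overlap. Without overlap, 8 of the 28 were higher (28.6%, against 9.98% of all genes), namely CCNE2, CDC6, E2F1 and the helicase subunit genes MCM2 (0.19 ± 0.10), MCM3 (0.17 ± 0.11), MCM4 (0.11 ± 0.07), MCM5 (0.20 ± 0.09) and MCM7 (0.16 ± 0.10), and 2 were lower, MKI67 and CENPF (−0.19 ± 0.12). The share of genes higher without overlap depends on their level. Among genes not raised at 24 h it was 2.88% below a mean of 0.5 CPM. It was 20.2% at 50 CPM or more, where CCNE2 and CDC6 lie. With the block within each time 6 of the 28 passed, MKI67 as lower (adjusted P = 0.035) and CCNE2 (0.0012), MCM5 (0.017), CDC6 (0.032), MCM2 (0.035) and E2F1 (0.047) as higher. Over all genes tested that fit called 1.88% lower and 0.508% higher. Genes of mitosis in the list, such as CDK1 (0.18 ± 0.15), CCNB1 (0.00 ± 0.13) and PLK1 (−0.17 ± 0.13), overlapped between the groups.

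The promoters of raised genes were searched for the p53 response element, the sequence that p53 binds. The search took a pair of adjacent consensus decamers with at most 2 mismatches in all and both C and G of each core in place, on both strands, from 250 bases before to 50 after the start (RefSeq sequences, GRCh38.p14). Of 27305 promoters 74 held a match (0.271%), and of the 1147 raised genes with a promoter sequence 11 did (0.959%). Of the 63 known targets with a promoter sequence, raised or not, 4 held one (6.35%). The search thus found no match for most known targets, and sequence outside this window was not searched. By the share of the wild type rise, 1 of 193 genes below 50% held a match (0.518%), 4 of 234 from 50% to below 80% (1.71%) and 3 of 139 at 80% or more (2.16%), counts too small to order. The matches in raised known targets are shown because these genes had different shares, with the 4-base cores of the decamers in capitals. They lie at chr15:88621306-88621325 (plus strand) for AEN, at chr12:56488113-56488132 (minus strand) for GLS2 and at chr1:9182144-9182163 (plus strand) for LNCTAM34A, whose shares were 112%, 66.5% and 90.1%.
AEN: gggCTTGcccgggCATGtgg
GLS2: aggCTTGctggggCATGcgc
LNCTAM34A: gaaCAAGcccaggCAAGccc
The match in LNCTAM34A has 0 mismatches and those in AEN and GLS2 have 2 each. A match describes letters of the reference, and p53 binding was not measured here.

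The same difference was taken at 24 h and set against 6 h in 1 model. In that test of the difference between times 0 of 20875 genes passed an adjusted P of 0.05 (0%; edgeR), and 483 passed an unadjusted P of 0.05. For MMP15 the log2 fold change of p53 O6-meG over wild type p53 was −1.60 at 6 h and −0.61 at 24 h, and the difference between them (SE 0.29) did not pass (adjusted P = 1). For the 48 known targets the median was −0.09 at 6 h and 0.02 at 24 h. Over the 1919 raised genes it was −0.33 at 6 h and −0.23 at 24 h, but the wild type libraries of 24 h chose these genes, which lowers the second value. Against the same wild type libraries at 6 h, the medians over the 1919 genes were −1.17 with p53 TM and −1.10 with the RW mutant p53. These comparisons share the wild type libraries with that of p53 O6-meG and are given only side by side.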

How the data were processed

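H1299 cells were transfected, sorted by GFP at 6 h or 24 h, and sequenced as 30 stranded, rRNA-depleted total RNA libraries in 10 groups of 3. The authors aligned the single reads to hg38 with STAR 2.5.3a and counted them on GENCODE 27 genes with featureCounts of Subread 1.5.2 (versions per the submitters' processing notes and the methods), and deposited raw counts per gene without normalization. A deposited table of normalized values was not used here. Of 39359 gene identifiers 38904 were matched to GENCODE 44 for symbols and positions, and 455 were not.

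The deposited counts were fitted with edgeR 4.0.16 (R 4.3.3), using filterByExpr by group, TMM, 1 model over all 30 libraries, and the quasi-likelihood test with Benjamini-Hochberg adjustment over 20875 genes. A gene was called at an adjusted P below 0.05 with no fold limit. The standard error is the estimate divided by the root of its F value. Log2 levels of single libraries used a prior count of 0.5. CPM is scaled to the counts of tested genes. The scripts were tested on simulated data with known changes.

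Some items are not reported here. The comparison, the gene lists and the grouping of the 2 libraries of conflicting title were chosen with earlier results of these data known. Genes named are MGMT, members of the role lists, up to 10 lower and 10 higher genes of smallest P without overlap of the groups, and the 10 lowest and 5 highest by share of the wild type rise, the last also among genes with at least 10 reads per library. The 3 genes that close the observations were chosen after their values were seen.

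The replicate numbers were checked as a pairing: over 12544 genes the deviations from the group means correlated at 0.36, 0.24 and 0.26 between wild type p53 and p53 O6-meG libraries of the same number and between −0.30 and −0.00 otherwise, so the numbers pair these libraries. This comes from the data, since no label names a shared day or batch. No 2 libraries of a group agree within sampling noise (chi-square per degree of freedom 4.72 to 21.7). The largest values were those of p53 O6-meG replicate 3 against replicates 1 (19.6) and 2 (21.7). Replicates 1 and 2 stood at 4.72 from each other, and the wild type pairs at 5.1 to 11.8. Alternatives were another scaling (DESeq2 1.42.0 size factors), DESeq2's Wald test, other filters, fits on fewer libraries, the replicate block, both treatments of the conflicting libraries, and each of the 6 libraries left out. Figures were drawn with matplotlib.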

Additional observations from a re-analysis of the deposited data

How the results depend on the processing

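The median log2 fold change of the raised genes and the median share of the wild type rise kept their direction under each alternative that gave them (no share was computed for 4 of the fits). Leaving out 1 library at a time gave −0.39 to −0.27 and 52.8% to 66.1%, and exchanging the 2 libraries of conflicting title gave −0.61 and 39.9%. MGMT kept its direction and passed under no alternative. The number of calls was the least stable result, against 1 lower and 0 higher. It was 0 to 9 lower without 1 library, the 9 being from the 15 libraries of 6 h without p53 O6-meG replicate 3. It was 0 lower with both conflicting libraries left out (1378 lower at an unadjusted P of 0.05, edgeR) and 0 lower on the 6 libraries alone (1707 lower at an unadjusted P of 0.05, edgeR). It was 11 lower with every gene of at least 1 count, 12 lower and 2 higher by DESeq2's Wald test, and 102 lower and 3 higher on the 15 libraries of 6 h. The libraries of 6 h with both conflicting libraries left out, an alternative added after values were seen, gave 188 lower and 12 higher. The replicate block gave 11 lower and 2 higher, and a replicate block within each time, also added after values were seen, gave 392 lower and 106 higher. The cause of these differences was not tested. The replicate block changed no call of MGMT or of the difference between times. Over the genes named and the role lists, 3504 values under alternatives kept their side of the threshold, 107 passed it in addition and 5 (all MMP15) lost it. A further 45 values that were not called changed sign with a total shift of 1 SE or more, and 0 called values reversed.

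With 3 libraries per group, at 38905286 to 71950532 reads, differences of the size seen in most raised genes did not pass singly. Genes under 0.5 CPM rest on few reads. Most calls of the fit on 6 h were lost without p53 O6-meG replicate 3.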

Other observations

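The 12 listed immediate early genes, which answer stimuli within minutes, had a median log2 fold change of 0.27 and overlapped between the groups. At an unadjusted P of 0.05, 2 of the 12 were higher (FOSB and IER3; against 2.89% of all genes), and 0 were called by edgeR. FOSB was at 4.62, 5.27 and 7.01 CPM with wild type p53 and at 6.27, 4.66 and 28.7 CPM with p53 O6-meG, and MYC was at 22, 22.3 and 30.9 CPM and at 26.9, 20.6 and 80.6 CPM. In both genes p53 O6-meG replicate 3 alone was high, and the fits without this library are given with the other results. The 12 heat shock and endoplasmic reticulum stress genes (median 0.02) and the 6 genes of the aryl hydrocarbon receptor (median 0.02) held 0 genes called by edgeR and 0 at an unadjusted P of 0.05.

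Of 12 listed interferon response genes 10 were tested, all 10 had a log2 fold change below 0 (median −0.28, against 52.2% below 0 over all genes), and 0 were called over all libraries by edgeR (3 of 10 lower at an unadjusted P of 0.05, against 5.84% of all genes). IFI44 was at 3.64, 3.84 and 4.08 CPM with wild type p53, at 2.07, 2.26 and 2.53 CPM with p53 O6-meG and at 2.92 to 3.15 CPM with pGFP. Its log2 fold change was −0.76 ± 0.17 (adjusted P = 0.18, 0.037 on the 15 libraries of 6 h, 0.095 on these without p53 O6-meG replicate 3, and 0.017 with a replicate block within each time). IFIH1 was also called lower on the 15 libraries of 6 h (edgeR, adjusted P = 0.028) and with the block within each time (adjusted P = 0.032). The 10 genes of alkylation and mismatch repair had a median of 0.14, with EXO1 the highest at 0.27 ± 0.10 (adjusted P = 0.50, and 0.047 with the block within each time).

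The 3 genes that follow were singled out after their values were seen, because they lay below wild type in every lesion library, and stand for no pathway. The same held for 12.3% of all genes tested and for 43.9% of the genes raised by wild type p53 at 24 h. The ligand gene JAG2 was at 125, 121 and 134 CPM with wild type p53, at 81.9, 84.6 and 49.3 CPM with p53 O6-meG and at 19.8 to 23.2 CPM with pGFP. The receptor gene NOTCH3 was at 20.3, 20.7 and 25.1 CPM, at 12.8, 13.2 and 9.37 CPM, and at 4.36 to 4.56 CPM with pGFP. The receptor gene NOTCH1 was at 24.3, 22.3 and 23 CPM, at 17.9, 18.8 and 14.9 CPM, and at 9.94 to 11.4 CPM with pGFP. Over all libraries their adjusted P were 0.30, 0.48 and 0.40, and on the 15 libraries of 6 h 0.023, 0.0034 and 0.036. On these libraries without p53 O6-meG replicate 3 they were 0.012, 0.012 and 0.17. With the block within each time they were 0.011, 0.0064 and 0.03 (edgeR).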
